A study of Mus musculus with 48 samples.

Results

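The 33 genes described here encode the machinery of DNA replication and mitosis, and their mRNA was read in the liver of mice that differed in hepatocyte p110α, diet and nutritional state. The members were named by symbol, from the marker Mki67 through cyclins, replication helicase subunits and mitotic kinases to spindle motors, and none was chosen by a measured threshold. All 33 were on the array, among 37074 named genes, with 58 probes in all. Each gene was read from a single probe, the brightest on average over the 48 arrays. The test was open to a gene if the scanner software placed that probe well above local background in 5 or 6 mice of any group. This held for 31 members and for 20476 genes in total. Of the 31, 21 were above background on all 48 arrays. A further 5 (Top2a, Ccnb1, Cdk1, Foxm1 and Cenpe) reached the limit in several groups. The last 5 (Aurkb, Bub1, Cenpf, Kif11 and Tpx2) reached it only in LWT mice fed HFD, so these had to be higher there than elsewhere, and their direction in comparisons with that group is given as a description. Ccnb1 and Foxm1 reached the limit only in fed mice on HFD, of both genotypes. Their direction in comparisons of those groups with CTRL or fasted mice is therefore also a description. Ccne2 and Bub1b were too dim to be tested, with at most 3 of 6 arrays of any group above background.

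All mice were male and on a C57BL/6J background. LWT mice (hep+/+) carried floxed p110α without Cre and were littermates of LKO mice (hep-/-), in which Cre under the albumin promoter deletes the floxed alleles in hepatocytes. p110α is a catalytic subunit of the phosphoinositide 3-kinase that acts below the insulin receptor. From 12 weeks of age the mice received either the CTRL diet or HFD, in which 60% of calories came from fat, for 12 weeks. They were then killed at ZT16, 16 h after the lights came on, either fed ad libitum or after a 24 h fast. Genotype, diet and nutritional state gave 8 groups of 6 mice, with 1 array per mouse. Since the knockout is confined to cells that express albumin-Cre, the other liver cells of LKO mice keep p110α, and the RNA came from whole liver. In such bulk RNA, fewer cycling cells and less RNA per cycling cell cannot be told apart.

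Most hepatocytes of an adult liver rest outside the cell cycle and can return to it, for example after loss of tissue. On entry, E2F factors turn on genes for replication origins, the MCM helicase and nucleotide synthesis. Later the MuvB complex, with B-MYB and FOXM1, turns on the genes of G2 and mitosis through a promoter element called CHR, often with CCAAT boxes that bind NF-Y. The mRNAs of these genes are therefore widely used to measure how many cells in a tissue are cycling.

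The promoters of 7 members on which the results turn are shown to set the replication genes beside the mitotic ones. They are RefSeq sequences of GRCm38.p6, from 250 bases before the transcription start to 50 bases after it, 5′ to 3′ on the strand of the gene. Capitals mark exact matches on either strand to a CHR, a CCAAT box or an E2F site. The words searched for the CHR were TTTGAA and, as the other form, TTCGAA. The word for the CCAAT box was CCAAT itself. Those for the E2F site were TTTCCCG, then TTTCGCG, further TTTGCCG, and finally TTTGGCG. They lie at chr7:135716330-135716629 on the minus strand for Mki67, at chr7:122159185-122159484 on the plus strand for Plk1, at chr4:118437294-118437593 on the minus strand for Cdc20, at chr2:132253131-132253430 on the minus strand for Pcna, at chr1:128359656-128359955 on the minus strand for Mcm6, at chr12:24708004-24708303 on the plus strand for Rrm2 and at chr11:117825965-117826264 on the minus strand for Tk1.
Mki67: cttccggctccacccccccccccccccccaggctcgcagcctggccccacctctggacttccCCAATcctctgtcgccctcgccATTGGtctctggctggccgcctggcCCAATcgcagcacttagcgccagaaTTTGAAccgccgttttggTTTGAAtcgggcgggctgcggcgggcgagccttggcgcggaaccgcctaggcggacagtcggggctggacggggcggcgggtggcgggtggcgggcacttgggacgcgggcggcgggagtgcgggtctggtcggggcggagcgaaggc
Plk1: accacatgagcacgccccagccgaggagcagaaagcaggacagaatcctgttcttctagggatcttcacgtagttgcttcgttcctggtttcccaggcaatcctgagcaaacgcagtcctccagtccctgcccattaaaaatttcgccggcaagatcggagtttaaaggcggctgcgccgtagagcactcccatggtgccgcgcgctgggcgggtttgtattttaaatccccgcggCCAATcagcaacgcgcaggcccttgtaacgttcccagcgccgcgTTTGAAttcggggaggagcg
Cdc20: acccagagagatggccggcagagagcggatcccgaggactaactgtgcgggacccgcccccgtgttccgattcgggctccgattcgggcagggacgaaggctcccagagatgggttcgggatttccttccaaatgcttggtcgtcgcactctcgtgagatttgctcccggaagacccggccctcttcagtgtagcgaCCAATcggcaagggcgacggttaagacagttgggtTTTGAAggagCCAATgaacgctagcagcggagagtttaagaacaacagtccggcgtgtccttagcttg
Pcna: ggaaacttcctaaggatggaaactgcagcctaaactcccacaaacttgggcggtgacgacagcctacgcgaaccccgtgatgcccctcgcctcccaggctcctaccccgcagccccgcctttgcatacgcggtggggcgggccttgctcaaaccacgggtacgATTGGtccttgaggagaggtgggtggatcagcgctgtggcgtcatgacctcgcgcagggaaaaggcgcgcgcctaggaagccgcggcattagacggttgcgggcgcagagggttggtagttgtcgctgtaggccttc
Mcm6: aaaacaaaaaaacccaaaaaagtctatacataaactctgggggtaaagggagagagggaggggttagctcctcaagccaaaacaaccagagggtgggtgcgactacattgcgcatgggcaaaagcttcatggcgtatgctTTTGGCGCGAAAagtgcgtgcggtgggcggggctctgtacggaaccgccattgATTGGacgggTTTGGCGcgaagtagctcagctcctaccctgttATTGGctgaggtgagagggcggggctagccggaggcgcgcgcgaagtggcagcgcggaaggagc
Rrm2: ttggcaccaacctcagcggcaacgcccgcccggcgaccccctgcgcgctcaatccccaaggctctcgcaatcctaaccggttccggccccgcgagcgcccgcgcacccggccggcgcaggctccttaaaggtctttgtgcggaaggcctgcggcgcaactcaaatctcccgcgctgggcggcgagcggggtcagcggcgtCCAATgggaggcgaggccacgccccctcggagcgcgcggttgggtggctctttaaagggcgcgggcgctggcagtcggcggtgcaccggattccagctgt
Tk1: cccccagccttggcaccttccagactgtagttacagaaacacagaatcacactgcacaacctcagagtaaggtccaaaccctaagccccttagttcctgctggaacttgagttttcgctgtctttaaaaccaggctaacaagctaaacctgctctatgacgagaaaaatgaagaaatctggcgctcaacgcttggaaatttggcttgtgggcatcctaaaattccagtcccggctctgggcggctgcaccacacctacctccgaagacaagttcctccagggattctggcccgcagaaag

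The promoters of Mki67, Plk1 and Cdc20 each hold CHR and CCAAT words. In Mki67, CHR words begin 116 and 98 bases before the start, behind 3 CCAAT boxes. In Cdc20 the CHR begins 18 bases before the start, between CCAAT boxes at 53 and 8 bases. In Plk1 the CHR begins 31 bases into the transcript and the CCAAT box 14 bases before the start. The Mcm6 promoter holds no CHR, 2 CCAAT boxes and 3 E2F words, of which the TTTGGCG at 110 bases before the start and the TTTCGCG read on the other strand at 105 bases share bases. Pcna and Rrm2 hold a single CCAAT box each, and Tk1 holds none of these words. A promoter was given for 26 of the 33 members, and Ccna2, Ccne2, Mcm4, Aurkb, Foxm1, Kif20a and Tpx2 had no entry. A CHR occurred in 16 of the 26 (61.5%) against 19.4% of 27025 promoters of the same length. It occurred in 14 of the 17 members outside S phase and G1/S, and in 2 of the 9 within, Mcm2 and Mcm7, which also hold CCAAT. Of the mitotic members, Ccnb1 and Cenpe hold CCAAT without a CHR and Birc5 holds neither. CCAAT occurred in 23 of 26 (88.5%, against 37.9%). E2F words occurred in 7 of 26 (26.9%, against 6.85%), in 4 of the 9 members of S phase and G1/S (Mcm3, Mcm5, Mcm6 and Mcm7) and in 3 of the other 17 (Cdk1, Birc5 and Cdca8). These are matches of letters in a window, and no binding was measured.

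The arrays were of even quality, with 52.3% to 59.3% of spots well above background and no saturated spot. Arrays were washed in 2 batches of 3 mice per group each, and every comparison could be repeated within a batch. Across the members, 3 arrays stood above the rest of their own group. Replicate 1 of fasted LWT mice on HFD was the highest of its group for 28 of the 31 members, replicate 6 of fed LKO mice on HFD for 25, and replicate 5 of fed LKO mice on CTRL for 24. Without these 3 arrays together, 9 of the 18 comparisons and interactions kept their counts of calls in both directions, and the counts that moved are given with their results. The Pik3ca probe, at chr3:32364747-32364806 (mm9), was not lower in LKO mice, and in fed mice on HFD it was higher by 0.58 ± 0.08 on the log2 scale (SE, adjusted p = 2.99e-07). Its position relative to the deleted exons is not known here, so it does not check the genotype. Levels below are normalized log2 signals of single probes, so levels of different genes are not set against each other. Differences come from a limma model of all 48 arrays with array weights and can differ slightly from differences of plain means. Adjusted p values are those of limma with Benjamini-Hochberg adjustment over all 30793 probes tested, and a gene was called at 0.05 or below.

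**Figure D1:**
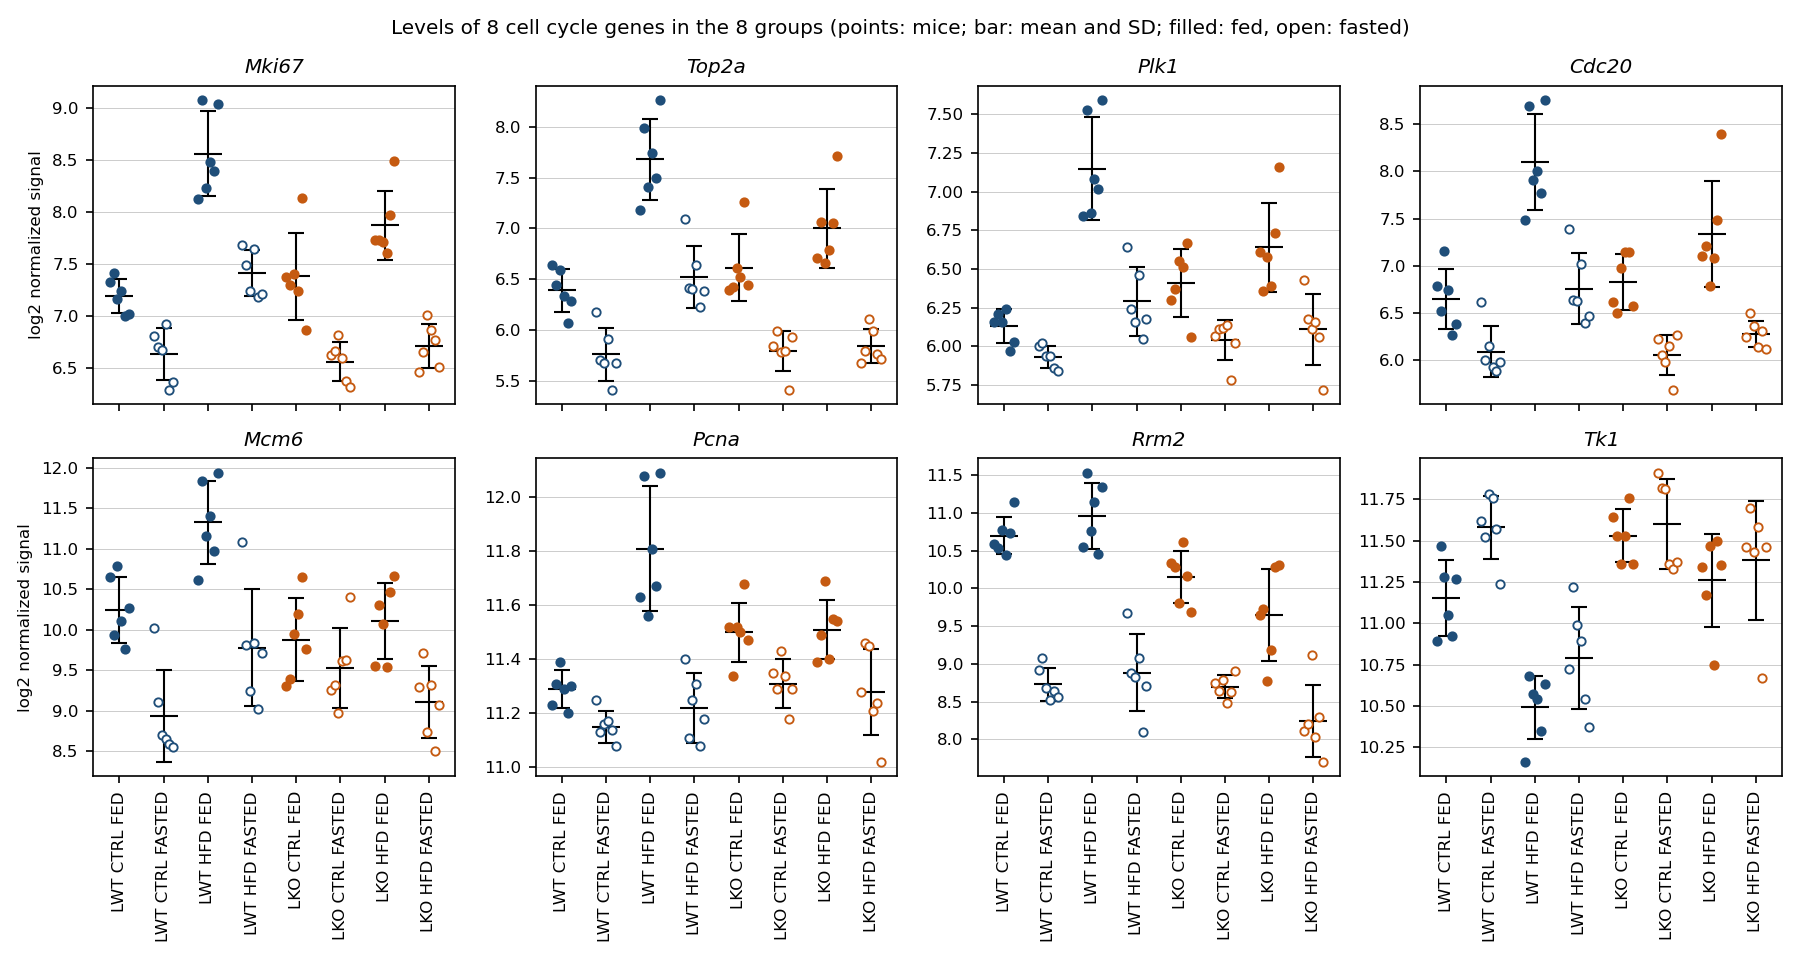
Normalized log2 signal of 8 members in every mouse (points) of the 8 groups, with the group mean and SD. Fed LWT mice on HFD hold the highest values for Mki67, Top2a, Plk1 and Cdc20, whereas Tk1 is lowest in that group and Rrm2 is low in all fasted groups.

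The first comparison asked how 12 weeks of HFD changed these genes in fed LWT mice. Nearly all of them rose. Of the 21 members above background on every array, 18 were called higher on HFD and 1 lower, with a median difference of 0.86 on the log2 scale, against -0.01 over all genes tested. Of the 31 tested, 28 were called higher and 1 lower, and 5 of those 28 are the genes that passed the limit through this group alone. In the background of 20476 genes, 12.4% were called higher and 11.7% lower. With no filter on dim probes, which gives all 33 members a value, 29 were called higher and 1 lower (median 0.81). Sizes depended on the processing. An alternative that changed signal and scaling together took the processed signal, from which the scanner software subtracts background, scaled to the 75th percentile. The median over the 31 was then 1.24 in place of 0.82, and the dim genes moved most. Background correction by the normexp method gave a median of 0.69. The 6 HFD mice lay wholly above the 6 CTRL mice for 20 members, a separation that 5.52% of all genes showed, and wholly below them for 1 (4% of all genes). A fold change above 1.5 was reached by 23 of the 28, and 2.65% of all genes were called higher by that measure. Aurkb and Tpx2 are among both the 20 and the 23. They passed the limit through this group alone, so their part in these counts is a description and no support. Within washing batch 1 the median was 0.88 with 24 called higher, and within batch 2 it was 0.68 with 17 called higher and 1 lower.

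Among the genes of chromosomes and the spindle, Mki67, which coats mitotic chromosomes and marks cycling cells, ran from 7 through a median of 7.20 to 7.41 in fed LWT mice on CTRL and from 8.12 through 8.44 to 9.07 on HFD. The groups did not overlap, and the difference was 1.45 ± 0.15 (SE), a 2.72-fold rise (adjusted p = 2.46e-09). Its probe lies at chr7:142881591-142881650 in mm9. Top2a, the topoisomerase that untangles sister chromatids, ran from 6.07 through 6.38 to 6.64 on CTRL and from 7.18 through 7.62 to 8.26 on HFD, again without overlap. It rose 2.56-fold (1.36 ± 0.15, adjusted p = 1.18e-08). The kinesins and kinetochore genes rose too. Kif20a, a motor of cytokinesis, went from 5.94 to 6.22 (median 6.17) up to 6.52 to 7.38 (median 6.82), a difference of 0.82 ± 0.09 (adjusted p = 1.18e-08). Cenpe, which carries chromosomes along microtubules, went from 5.53 to 6.11 (median 5.75) up to 6.55 to 7.19 (median 6.61), a difference of 1.04 ± 0.12 (adjusted p = 3.4e-08), with 4 of 6 CTRL arrays above background. Both sets of mice were apart for these genes. Tpx2, an activator of the aurora A kinase, was above background on all HFD arrays and on none of the CTRL arrays, so its rise was at least 1.5-fold. By the same reading Cenpf rose at least 1.22-fold and the spindle motor Kif11 at least 1.18-fold. Tpx2, Cenpf and Kif11 passed the limit through the HFD group alone, so their direction is a description and no support.

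The mitotic kinases and the chromosomal passenger genes followed. Plk1, the polo-like kinase of mitotic entry, ran from 5.97 through 6.16 to 6.24 on CTRL and from 6.84 through 7.05 to 7.59 on HFD. The ranges were apart and the difference was 1.08 ± 0.11, a 2.12-fold rise (adjusted p = 3.25e-09). Its probe lies at chr7:129313220-129313279 in mm9. Aurka, the aurora kinase of the spindle poles, rose by 1.1 ± 0.14 (adjusted p = 2.72e-07), from 7.61 to 8.09 on CTRL up to 8.51 to 9.43 on HFD. Birc5 (survivin) and Cdca8 (borealin), subunits of the passenger complex, rose by 1.14 ± 0.18 and 0.78 ± 0.12. Aurkb, the kinase of that complex, was above background on 1 of 6 CTRL arrays and on all HFD arrays. Its difference of 0.66 ± 0.18, or 1.61 under the alternative that changed signal and scaling together, is therefore uncertain in size. Its call rested on replicate 6 of the HFD group, without which the difference was 0.49 (adjusted p = 0.0581). The checkpoint kinase Bub1 rose at least 1.12-fold, from no array above background to 5 of 6. Aurkb and Bub1 passed the limit through the HFD group alone, so their direction is a description and no support.

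In the control of G2 and M, all 6 tested members were higher. Foxm1, the transcription factor of mitotic genes, ran from 5.38 through 5.60 to 5.89 on CTRL and from 6.16 through 6.33 to 6.97 on HFD, a difference of 0.91 ± 0.11 (adjusted p = 8.64e-08). Only 2 of its 6 CTRL arrays were above background, and under the alternative that changed signal and scaling together the difference was 1.92. Foxm1 passed the limit only in fed mice on HFD, so its direction here is a description. Ccna2, the cyclin of S and G2 phases, ran from 6.15 through 6.51 to 7.05 and from 7.24 through 7.62 to 8.12, a difference of 1.14 ± 0.15 (adjusted p = 2e-07). Neither gene overlapped between the diets. Cdk1, the kinase of mitotic entry, differed by 0.85 ± 0.19, and here replicate 3 of the CTRL mice at 7.11 lay far above the other 5, which ended at 5.93. Ccnb1 and Ccnb2, the B cyclins that activate Cdk1, both rose by 0.66. Only 3 of 6 CTRL arrays were above background for Ccnb1, and 3 of 6 for Cdk1. Over the alternatives the Ccnb1 difference ran from 0.46 to 1.36, so its size is uncertain. Ccnb1 passed the limit only in fed mice on HFD, so its direction is a description. Cdca3, which promotes destruction of the inhibitor WEE1, rose by 0.90. At the exit from mitosis, Cdc20, the activator of the anaphase-promoting complex, had the largest difference of the members above background on all arrays. This also held under the alternative that changed signal and scaling together (1.93). Cdc20 ran from 6.27 through 6.63 to 7.16 on CTRL and from 7.49 through 7.95 to 8.75 on HFD, 1.5 ± 0.19 or 2.82-fold (adjusted p = 1.21e-07). Ube2c, the ubiquitin-conjugating enzyme of that complex, rose by 1.03 ± 0.16 (adjusted p = 4.81e-06).

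The genes of S phase were less uniform. The 6 subunits of the MCM helicase all rose, by 0.82 for Mcm2, 0.86 for Mcm3, 0.72 for Mcm4, 1.12 for Mcm5, 1.09 for Mcm6 and 0.45 for Mcm7. Pcna, the sliding clamp of DNA polymerases, ran from 11.20 through 11.30 to 11.39 on CTRL and from 11.56 through 11.74 to 12.09 on HFD. The ranges were apart, and the difference of 0.56 ± 0.07 was small but well determined (adjusted p = 1.61e-07). Tk1, the thymidine kinase that salvages thymidine, went the other way. It ran from 10.89 through 11.16 to 11.47 on CTRL and from 10.16 through 10.56 to 10.68 on HFD, so that every HFD mouse lay below every CTRL mouse, and it fell by 0.62 ± 0.13 (adjusted p = 0.00056). Another 2 Tk1 probes gave differences of -0.58 each. Neither Ccne1, the cyclin of S phase entry, nor Rrm2, the regulated subunit of ribonucleotide reductase, was called, at 0.44 ± 0.20 (adjusted p = 0.112) and 0.31 ± 0.19 (adjusted p = 0.274). Where other members had a further tested probe (Birc5, Ccna2, Cdc20, Cdca8, Cenpf, Mcm3 and Top2a), it was called in the same direction.

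**Figure D2:**
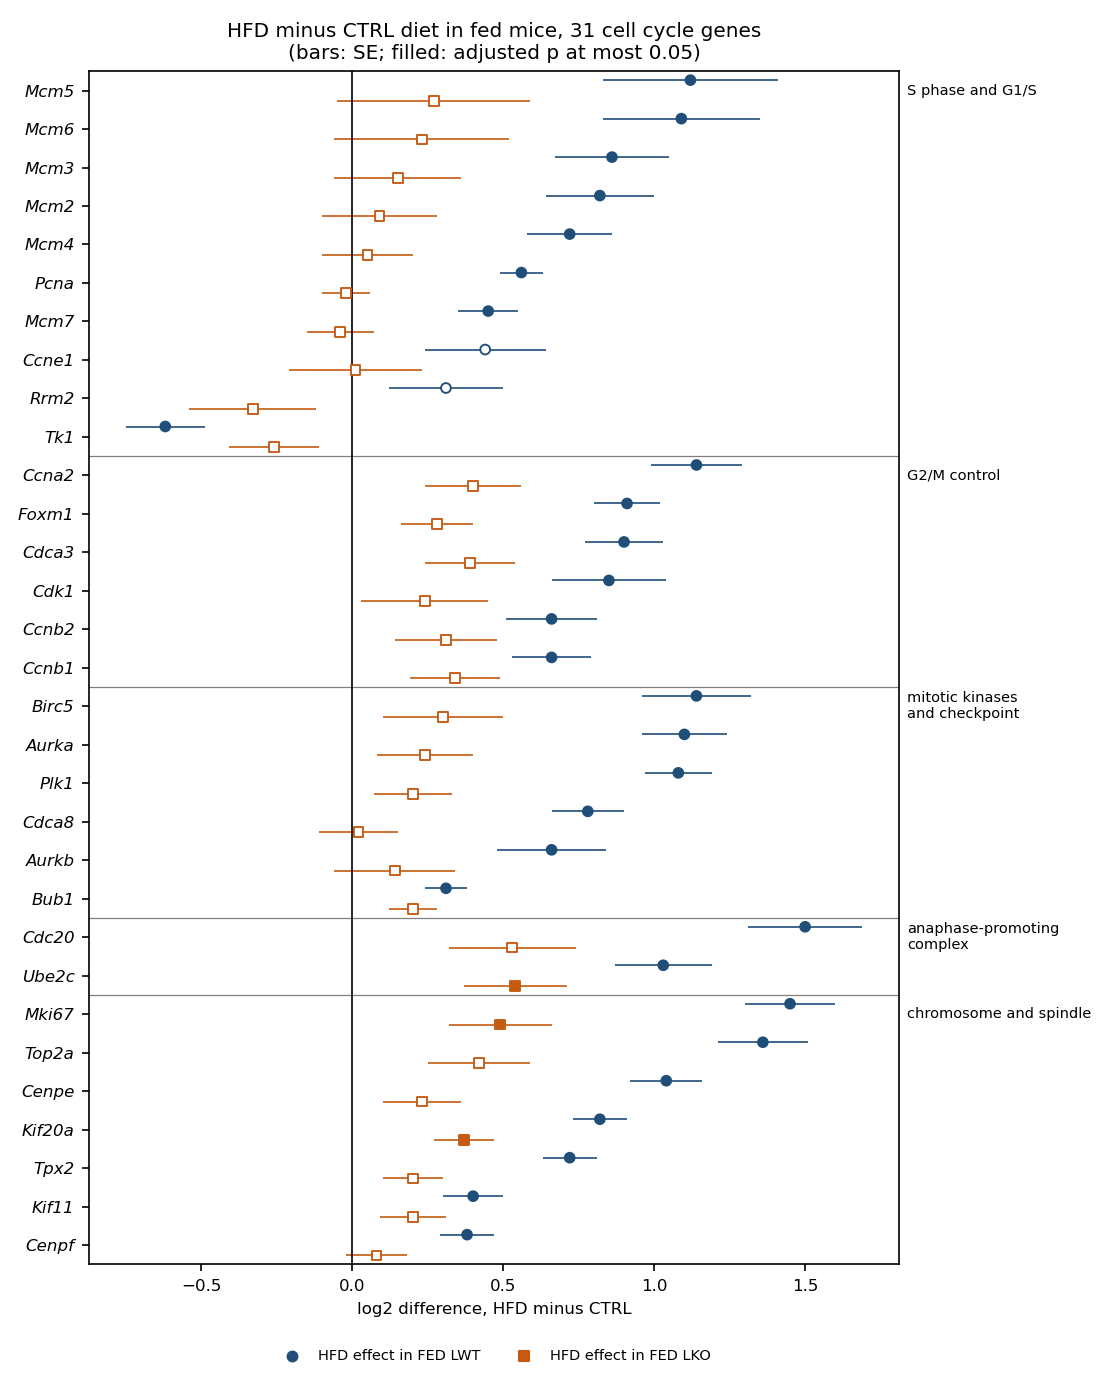
Difference between HFD and CTRL in fed mice for each tested member, on the log2 scale with its standard error, in LWT and LKO mice. In LWT mice 28 of 31 were called higher and Tk1 lower, and in LKO mice Kif20a, Ube2c and Mki67 were called higher.

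In fed LKO mice the same diet changed few of these genes. Of the 21 members above background on every array, 3 were called higher and none lower, with a median of 0.23 against 0 over all genes. These were also the only calls among the 31 tested, in a background of 5.83% called higher and 6.38% lower. Of the 31 differences 27 were positive, and with the processed signal scaled to the 75th percentile their median was 0.47. Kif20a ran from 5.92 through 6.11 to 6.39 on CTRL and from 6.29 through 6.41 to 6.95 on HFD, with a small overlap and a difference of 0.37 ± 0.10 (adjusted p = 0.0115). Ube2c rose by 0.54 ± 0.17 (adjusted p = 0.0354) and Mki67 by 0.49 ± 0.17 (adjusted p = 0.0441), where LWT mice had shown 1.03 and 1.45. Mki67 ran from 6.86 through 7.33 to 8.13 in LKO mice on CTRL and from 7.60 through 7.73 to 8.49 on HFD, so the ranges overlapped. Without replicate 6 of the LKO mice on HFD none of the 3 was called (Kif20a 0.28, adjusted p = 0.0538; Ube2c 0.42, adjusted p = 0.125; Mki67 0.37, adjusted p = 0.15), whereas 3 members were called when replicate 5 of the CTRL mice and replicate 1 of the fasted LWT mice on HFD were left out with it. The Mki67 call was lost on leaving out any of 8 arrays, the Ube2c call any of 7 and the Kif20a call 1. With the replicate number as a block, 1 member was called. Neither washing batch alone gave a call, with medians of 0.23 and 0.30. None of the helicase and clamp genes was called, with 0.09 for Mcm2, 0.15 for Mcm3, 0.05 for Mcm4, 0.27 for Mcm5, 0.23 for Mcm6, -0.04 for Mcm7 and -0.02 for Pcna, and Tk1 stood at -0.26 ± 0.15 (adjusted p = 0.275).

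Whether the diet acted differently in the genotypes was tested as an interaction in fed mice, the HFD difference in LKO mice minus that in LWT mice. It was called for 10 of the 31 tested members, all negative, where 0.962% of all genes were called positive and 1.87% negative. Of the 21 members above background on all arrays, 6 were called, and the median was -0.71 against 0.01 over all genes. With no filter on dim probes, 5 of the 33 were called, and without the 3 arrays named above 11 of the 31. Pcna had the smallest adjusted p, with a difference of 0.56 in LWT mice, -0.02 in LKO mice and an interaction of -0.58 ± 0.11 (adjusted p = 0.0011). Plk1 gave -0.89 ± 0.17 (adjusted p = 0.00177), Cenpe -0.81 ± 0.18 (adjusted p = 0.0106), Mki67 -0.95 ± 0.22 (adjusted p = 0.0145) and Cdca8 -0.76 ± 0.18 (adjusted p = 0.0146). These 5 kept their call when any single array was left out. Top2a (-0.93), Aurka (-0.86), Foxm1 (-0.63) and Cdc20 (-0.96) were called as well, with adjusted p from 0.0182 to 0.0487. The remaining call was Tpx2, which was tested only because it was bright in fed LWT mice on HFD. Among fed mice it was above background on 0 of 6 LWT CTRL, 1 of 6 LKO CTRL and 2 of 6 LKO HFD arrays, so its call is no support and its size (-0.52) is uncertain. Each of these 5 lost its call without replicate 6 of the LWT mice on HFD or without another array, and the count then fell to as few as 5. The Cdc20 call was lost on leaving out any of 31 of the 48 arrays. For Foxm1 this held for 7 arrays, for Tpx2 6, for Top2a 2 and for Aurka 1. Within washing batches the median was -0.75 with 2 calls in batch 1 and -0.43 with no call in batch 2. None of the MCM genes was called, although 5 of the 6 differed by -0.67 or more in the negative direction.

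On HFD, fed LKO mice had lower levels of most members than fed LWT mice. This comparison shares the HFD-fed LWT mice with the diet comparison, so they are not independent. Of the 21 members above background throughout, 17 were called lower and 1 higher, with a median of -0.58 against 0.03 over all genes. Of the 31 tested, 24 were called lower and 1 higher, where 16.3% and 16.6% of all genes were. The 24 include Cenpf and Tpx2, which passed the limit through fed LWT mice on HFD alone, so their calls are no support. Of the 26 members that did not pass through that group alone, 22 were called lower and 1 higher. With no filter, 22 of the 33 were called lower and 1 higher. The ranges were apart for 3 members lower and 1 higher, as for 7.03% and 5.97% of all genes. Rrm2 differed most firmly. It ran from 10.45 through 10.96 to 11.53 in LWT mice and from 8.77 through 9.69 to 10.31 in LKO mice, without overlap, and was lower by 1.26 ± 0.20 on the log2 scale in LKO mice (a difference of -1.26, adjusted p = 5.55e-06). Aurka was lower (-0.86 ± 0.15, adjusted p = 2.08e-05), with 8.51 to 9.43 in LWT and 7.70 to 8.69 in LKO mice. Tk1 was higher in LKO mice, at 10.75 to 11.50 against 10.16 to 10.68, again apart, with a difference of 0.73 ± 0.14 (adjusted p = 5.87e-05).

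All 6 subunits of the replication helicase were called lower in fed LKO mice on HFD. Mcm2 ran from 7.53 through 7.84 to 8.26 in fed LWT mice and from 6.53 through 6.94 to 7.27 in fed LKO mice, without overlap (-0.91 ± 0.19, adjusted p = 0.000173). Mcm6 showed -1.27 ± 0.28, Mcm5 -1.11 ± 0.30, Mcm3 -0.85 ± 0.20, Mcm4 -0.63 ± 0.15 and Mcm7 -0.42 ± 0.11, the last smaller than the median over members. Among mitotic genes, Cenpe (-0.63, adjusted p = 0.000177), Plk1 (-0.58, adjusted p = 0.000229), Mki67 (-0.73, adjusted p = 0.000369) and Cdca8 (-0.58, adjusted p = 0.000423) were lower, and Pcna was lower by a small amount (-0.35, adjusted p = 0.000259). Ccnb2, Ccne1, Aurkb, Bub1, Kif11 and Ube2c were not called. The counts differed between washing batches, with 16 called lower in batch 1 (median -0.55) and 1 in batch 2 (median -0.33), and 28 of 31 differences were negative in batch 2.

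On the CTRL diet the genotypes differed in few members. In fed mice 2 were called higher in LKO (Pcna at 0.22, adjusted p = 0.0282, and Tk1 at 0.38, adjusted p = 0.0445) and 1 lower (Rrm2 at -0.63, adjusted p = 0.0249), where 10.9% of all genes were called higher and 10.6% lower. Each of these calls was lost on leaving out any of at least 4 of the 48 arrays, and without the 3 arrays named above 1 was called lower and none higher. In fasted mice on CTRL none of the 31 was called (1 higher without the 3 arrays), where 12.5% of genes were called higher and 12.3% lower. Rrm2 thus differed between fed genotypes by -0.63 on CTRL and by -1.26 on HFD, and the difference of the differences, -0.64 ± 0.29, was not called (adjusted p = 0.239).

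HFD was also compared with CTRL in fasted mice. In fasted LWT mice 12 of the 21 members above background on all arrays were called higher and 1 lower, with a median of 0.53 against -0.02 over all genes. Of the 31 tested 16 were called higher and 1 lower (8.96% and 6.97% of all genes), and the ranges were apart for 5 higher and 1 lower (3.57% and 2.3% of all genes). Tk1 ran from 11.24 through 11.60 to 11.78 on CTRL and from 10.37 through 10.81 to 11.22 on HFD, below it in every mouse, and fell by 0.74 ± 0.13 (adjusted p = 0.000131). Mki67 ran from 6.29 through 6.69 to 6.92 on CTRL and from 7.18 through 7.36 to 7.68 on HFD, a rise of 0.81 ± 0.15 (adjusted p = 0.000246). Cdca8 rose by 0.63 (adjusted p = 0.000367), Top2a by 0.78 (adjusted p = 0.000408), Cenpe by 0.60 (adjusted p = 0.000735), Ccna2 by 0.64, Mcm2 by 0.74 and Mcm5 by 1.09. Without the 3 arrays named above, 13 were called higher and 1 lower. Within washing batch 1 2 were called higher (median 0.42) and within batch 2 6 were (median 0.38). With arrays scaled to their medians, 33.9% of all probes called in this comparison were higher, against 55.6% with quantile normalization, while 27 of the 31 members had a positive difference.

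In fasted LKO mice none of the 31 members was called for HFD, where 5.66% of all genes were called higher and 5.19% lower, and the median was 0.02. The genotype by diet interaction in fasted mice was called for 4, all negative, in a background of 2.88% called negative and 2.08% positive. They were Cdca8 (-0.69, adjusted p = 0.0199), Mcm4 (-0.75, adjusted p = 0.0286), Aurka (-0.71, adjusted p = 0.0441) and Top2a (-0.74, adjusted p = 0.0482). Leaving out replicate 6 of the fasted LWT mice on CTRL, or replicate 4 of those on HFD, left none of them called. On HFD, fasted LKO mice were lower than fasted LWT mice for 9 members and higher for 1, where 17.7% and 19.1% of genes were called, and without the 3 arrays named above for 7 and 1. Cdca8 came first (-0.77 ± 0.13, adjusted p = 1.15e-05). Aurka (-0.72), Mcm4 (-0.67), Mki67 (-0.71), Top2a (-0.67), Mcm2 (-0.68) and Cenpe (-0.47) followed, and Tk1 was the member called higher (0.56, adjusted p = 0.00206). Of the 21 members above background throughout, 7 were called lower and 1 higher (median -0.34). As a share of the 31, the lower calls lie above the background and the higher call below it, and 7 of the lower members had ranges that were apart, as 7.54% of all genes did.

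**Figure D3:**
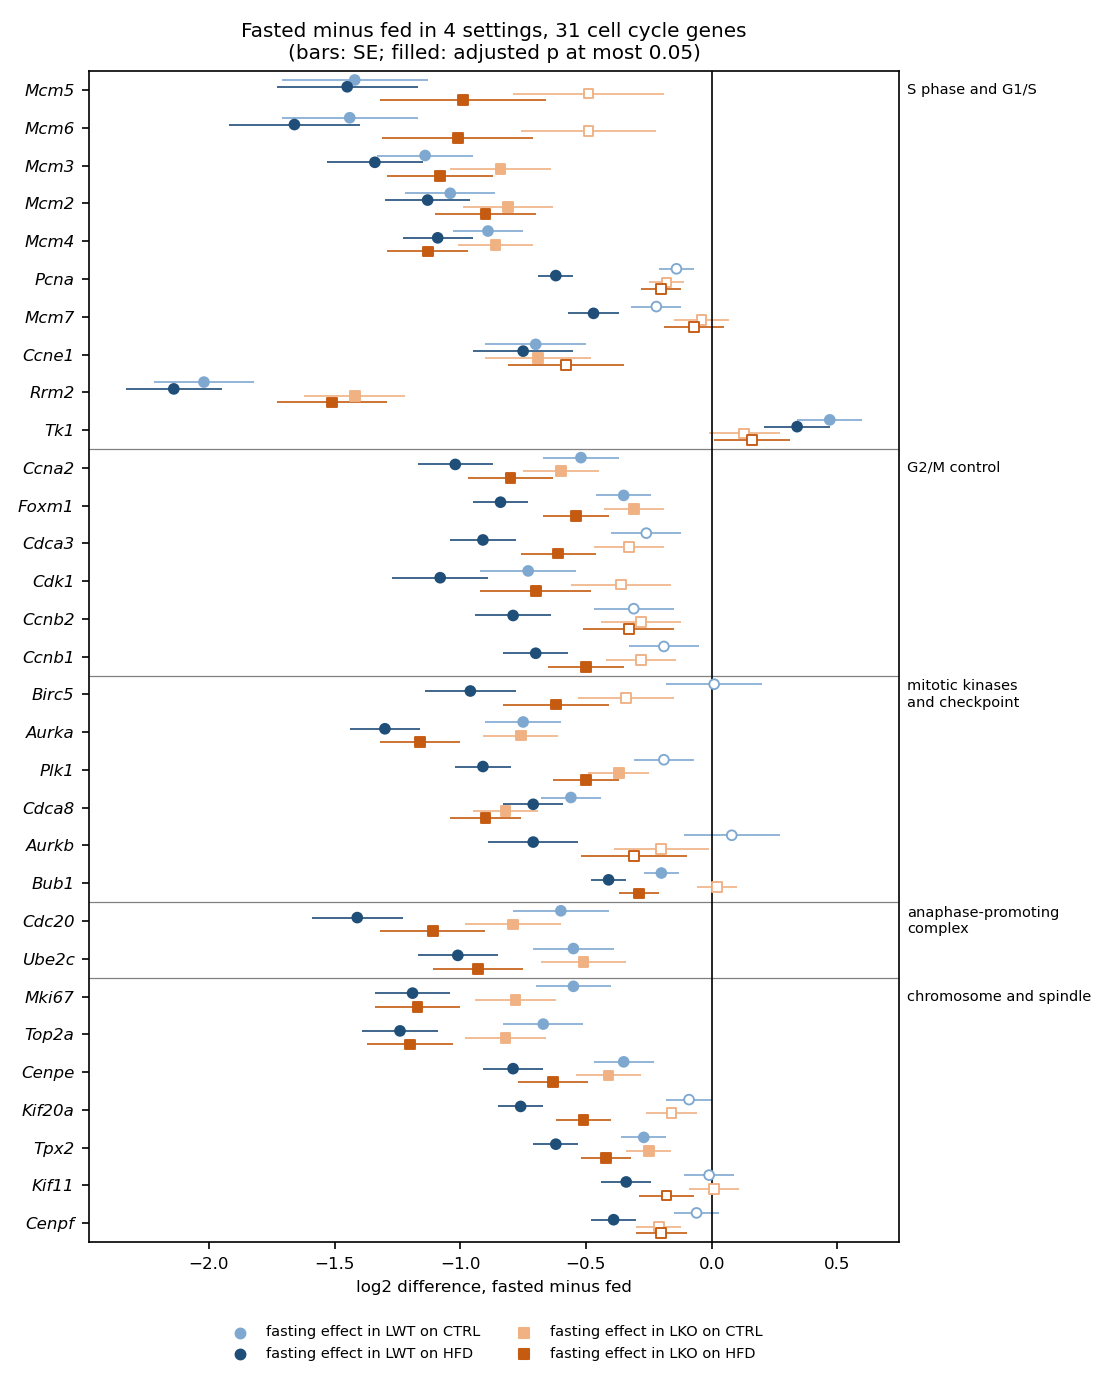
Difference between 24 h fasted and fed mice for each tested member on the log2 scale, with its standard error, in the 4 combinations of genotype and diet. Rrm2 has the most negative value in every combination, and in LWT mice all values are more negative, or for Tk1 less positive, on HFD than on CTRL.

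A 24 h fast lowered most of these genes in every combination of genotype and diet. Among the 21 members above background on all arrays, 13 were called lower and 1 higher in LWT mice on CTRL, with a median of -0.55. The same counts were 20 and 1 in LWT mice on HFD (median -1.01), 12 and 0 in LKO mice on CTRL (median -0.51) and 16 and 0 in LKO mice on HFD (median -0.90). The median over all genes was 0 in each. Of the 31 tested, the numbers called lower were 19, 30, 16 and 23 in the same order. The 30 include the 5 genes that passed the limit through fed LWT mice on HFD alone, whose calls there are no support. Without these 5 the numbers were 17, 25, 15 and 21 of 26. The shares of all genes called lower were 16.6%, 14.7%, 19.1% and 14.6%, and those called higher 16%, 13.8%, 16.4% and 13.9%. With no filter on dim probes the numbers called lower of all 33 were 18, 30, 16 and 23. Within washing batch 1 the numbers were 1, 20, 8 and 12 (medians -0.22, -0.76, -0.33 and -0.60) and within batch 2 they were 17, 28, 10 and 18 (medians -0.54, -0.92, -0.55 and -0.81). Without the 3 arrays named above they were 19, 30, 14 and 23 of the 31, and the Tk1 call in LWT mice on HFD was lost. In LWT mice on CTRL, Bub1 and Tpx2 were called although neither was above background on any array of either group, and for these no fold is given.

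Among the tested members, Rrm2 had the largest fall in the fitted differences. Under the alternatives its difference in LKO mice on HFD went no lower than -1.71. There Top2a reached -2.07, Cdk1 -1.93 and Tpx2 -1.83 under an alternative. In LWT mice on CTRL Rrm2 ran from 10.44 through 10.66 to 11.14 fed and from 8.52 through 8.66 to 9.08 fasted, a difference of -2.02 ± 0.20 (adjusted p = 1.22e-10). On HFD it ran from 10.45 through 10.96 to 11.53 fed and from 8.10 through 8.85 to 9.67 fasted (-2.14 ± 0.19, adjusted p = 9.54e-12). In LKO mice it fell by 1.42 ± 0.20 on CTRL, from 9.69 to 10.61 down to 8.48 to 8.91, and by 1.51 ± 0.22 on HFD, from 8.77 to 10.31 down to 7.70 to 9.12. Fed and fasted mice were apart in the first 3 of these and overlapped in the last. The difference between the genotypes in this fall was not called on CTRL (0.60 ± 0.28, adjusted p = 0.253) or on HFD (0.63 ± 0.29, adjusted p = 0.263).

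The helicase genes fell with the fast. Mcm4 ran in LWT mice on CTRL from 8.81 through 9.46 to 9.60 fed and from 8.21 through 8.47 to 8.90 fasted, with a difference of -0.89 ± 0.14 (adjusted p = 3.55e-06). Its differences were -1.09 in LWT mice on HFD, -0.86 in LKO mice on CTRL and -1.13 in LKO mice on HFD, all called. Mcm2 and Mcm3 were also called in all 4, from -0.81 to -1.34. Mcm6 and Mcm5 fell in LWT mice on CTRL by 1.44 and 1.42 and were not called in LKO mice on CTRL, at -0.49 each, although the genotype by fasting interaction was not called for either (Mcm6 0.95, adjusted p = 0.163, and Mcm5 0.94, adjusted p = 0.219). Mcm7 was called only in LWT mice on HFD (-0.47).

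Among mitotic genes, Aurka fell in all 4 combinations, by 0.75 in LWT and 0.76 in LKO mice on CTRL and by 1.30 and 1.16 on HFD. In LWT mice on HFD it ran from 8.51 through 8.78 to 9.43 fed and from 7.21 through 7.62 to 8.05 fasted, without overlap (adjusted p = 1.75e-09). Mki67 fell by 0.55, 1.19, 0.78 and 1.17 in LWT CTRL, LWT HFD, LKO CTRL and LKO HFD. Cdca8, Cdc20, Ccna2, Top2a, Cenpe, Foxm1 and Ube2c were called in all 4 as well, and Cdca8 and Top2a kept these calls when any single array was left out. Foxm1 passed the limit only in fed mice on HFD, so its direction with the fast on HFD is a description. On CTRL, leaving out 1 array could end the call of Foxm1 in LKO mice (any of 6 arrays), of Cenpe in LWT (5) and LKO mice (1), of Ube2c in LKO (2) and LWT mice (1), and of Ccna2 and Cdc20 in LWT mice (1 each). Pcna was called in LWT mice on HFD (-0.62 ± 0.07, adjusted p = 3.3e-09), where it went from 11.56 to 12.09 down to 11.08 to 11.40. Its other differences were -0.14 in LWT mice on CTRL, -0.18 in LKO mice on CTRL and -0.2 in LKO mice on HFD, none of them called. Kif20a and Plk1 were not called in LWT mice on CTRL (-0.09 and -0.19) and fell in LWT mice on HFD (-0.76 and -0.91). Tk1 again differed in direction and was higher in fasted LWT mice, by 0.47 ± 0.13 on CTRL (adjusted p = 0.00638) and 0.34 ± 0.13 on HFD (adjusted p = 0.0457). The call on HFD was lost on leaving out any of 8 arrays, down to 0.22 (adjusted p = 0.248) without replicate 2 of the fasted mice. The Cdk1 call in LWT mice on CTRL (-0.73) was lost without the outlying fed replicate 3 (-0.43, adjusted p = 0.0527).

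The diet by fasting interaction in LWT mice was negative for all 21 members above background on every array, with a median of -0.46. It was called for 4 of these and for none of the other 10 tested, where 1.51% of all genes were called negative and 0.85% positive. They were Kif20a (-0.67 ± 0.13, adjusted p = 0.00276), Pcna (-0.48 ± 0.10, adjusted p = 0.00512), Plk1 (-0.72 ± 0.16, adjusted p = 0.0109) and Birc5 (-0.96 ± 0.26, adjusted p = 0.0367). The Birc5 call was lost on leaving out any of 12 arrays, down to -0.79 (adjusted p = 0.108) without replicate 6 of the fed mice on HFD. Without the 3 arrays named above the count was 8. In LKO mice none was called, where 4.24% of all genes were called negative and 3.66% positive. The genotype by fasting interaction was called for none of the members on CTRL (1.72% of genes positive and 2.2% negative) and for Pcna on HFD (0.42 ± 0.11, adjusted p = 0.0178, where 1.68% of genes were called positive and 1.69% negative). The Pcna call was lost without replicate 6 of the fed LWT mice on HFD (0.34, adjusted p = 0.0572), and without the 3 arrays named above 3 members were called.

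**Figure D4:**
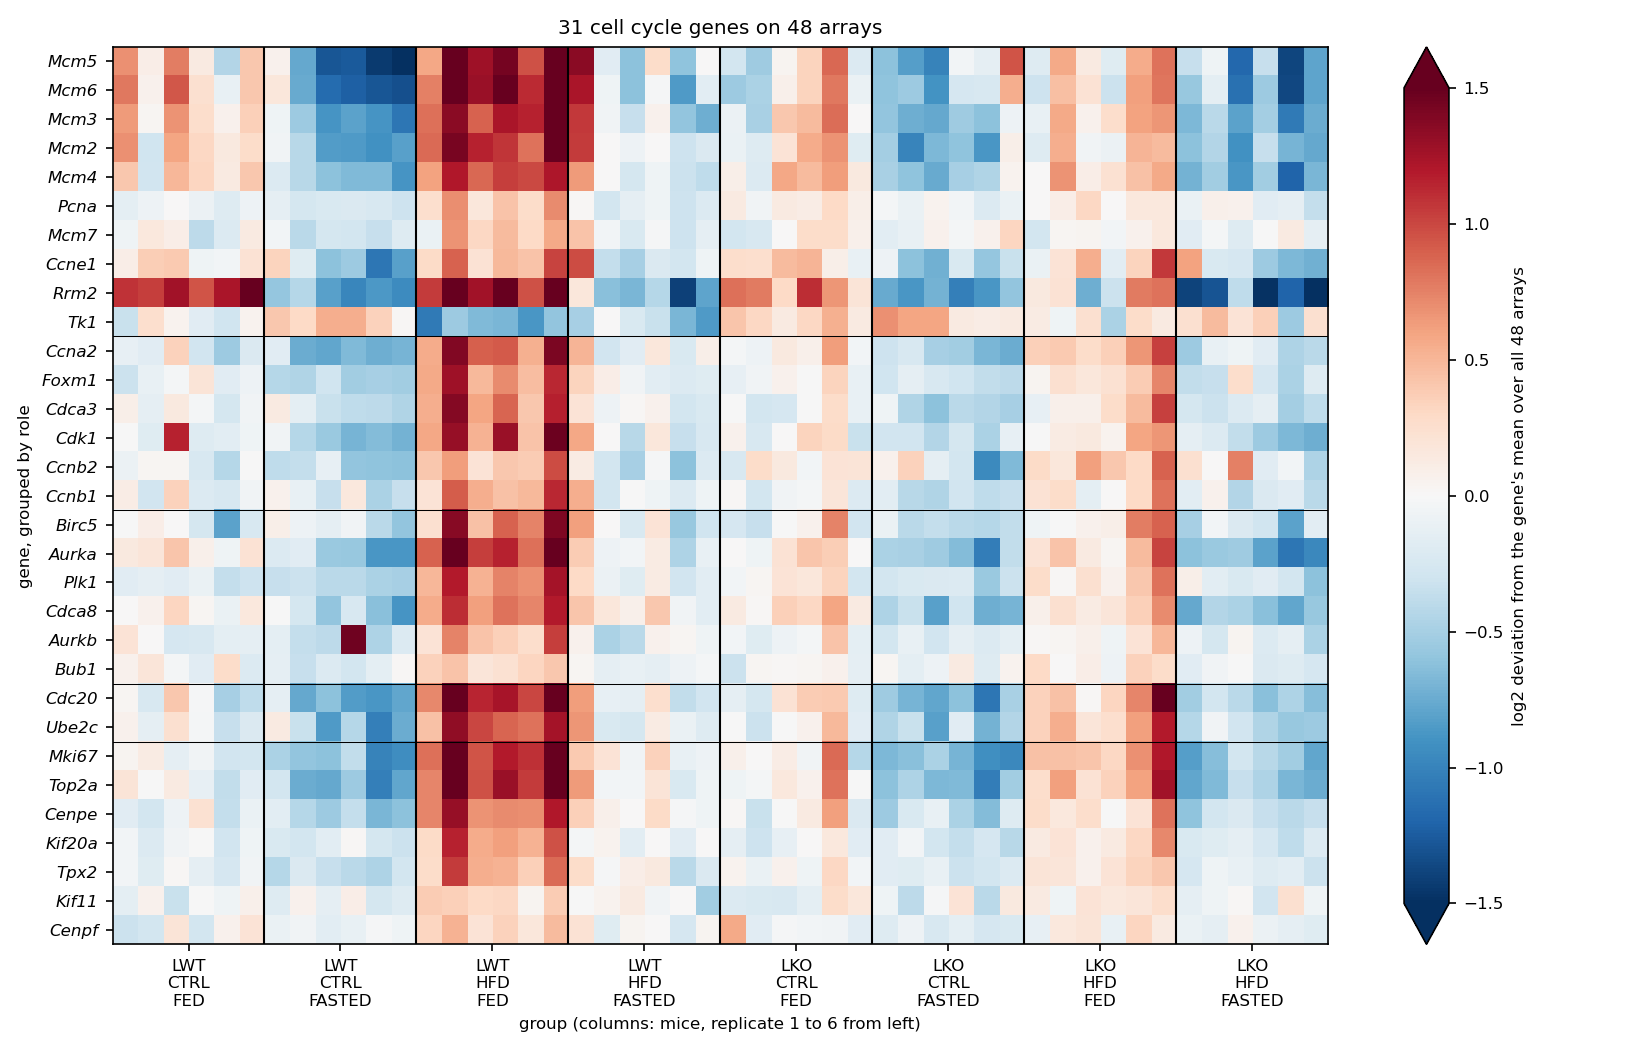
Level of each tested member (rows, by role) in each of the 48 mice (columns, by group) as the log2 deviation from its mean over all arrays. Fed LWT mice on HFD have the highest group mean for 30 of the 31 members and the lowest for Tk1.

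**Figure D5:**
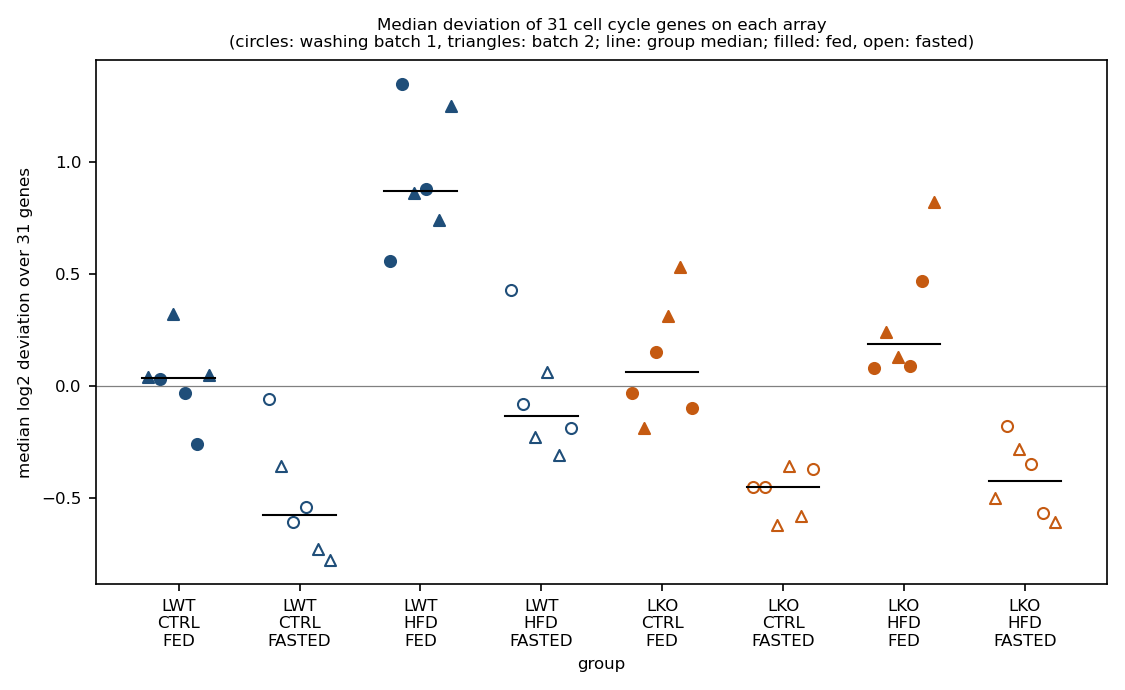
Median over the 31 tested members of the deviation from each member's mean over all arrays, for every mouse, by group, on the log2 scale. Fed LWT mice on HFD lie between 0.56 and 1.35, above all but 1 mouse of the other groups.

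Seen mouse by mouse, the members' median deviation from their own mean over all arrays orders the groups. It ran from 0.56 through 0.87 to 1.35 in fed LWT mice on HFD and from -0.26 through 0.04 to 0.32 in fed LWT mice on CTRL. Fed LKO mice ran from -0.19 through 0.06 to 0.53 on CTRL and from 0.08 through 0.18 to 0.82 on HFD. Those ranges overlap each other and that of fed LWT mice on CTRL. The highest LKO value on HFD, replicate 6, reaches into the range of LWT mice on HFD, and the other 5 lie below it. Among fasted mice the medians were -0.58 (LWT CTRL), -0.45 (LKO CTRL), -0.42 (LKO HFD) and -0.14 (LWT HFD). The last group ran from -0.31 to 0.43 and overlapped its neighbours. These medians include the 5 dim genes that passed through the HFD-fed LWT group, so they are a description and were not tested.

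Other genes of the cell cycle, 71 tested of 80 listed in 5 groups, were read in the same way. In fed LWT mice on HFD, 44 of the 71 were called higher and 1 lower, and of the 57 above background on every array 32 and 1, beside the 12.4% and 11.7% of all genes. Of 20 tested replication and nucleotide supply genes, 17 rose and 1 fell (median 0.48), led by Lig1, the ligase of Okazaki fragments (0.78 ± 0.13, adjusted p = 1.2e-05), Gins2 (0.90), of the replicative helicase, and Prim1 (0.87), the primase. Of 25 genes of mitosis and cytokinesis 18 rose and none fell (median 0.72), led by Anln (0.92, adjusted p = 3.42e-09) and Prc1 (1.47, adjusted p = 1.18e-08), both needed for cytokinesis, and the kinetochore gene Nuf2 (1.09). Nuf2 was above background on 15 of the 48 arrays, and of the 15 genes of this group above background on every array 9 rose (median 0.52). Of 7 G1 cyclins and kinases 4 rose, led by Cdk6 (0.42), Ccnd2 (0.31) and Ccnd3 (0.15), and of 11 E2F and pocket protein genes 3 rose, Rbl1 (0.60), E2f1 (0.66) and Lin9 (0.34). Of 8 CDK inhibitors, Cdkn1a (1.07, adjusted p = 0.0328) and Cdkn2a (0.35) were higher.

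In fed LKO mice 6 of the 71 rose on HFD and 2 fell, beside 5.83% and 6.38% of all genes. Those that rose included Spc25, of the kinetochore (0.85), Prc1 (0.69) and Ccnd3 (0.26). Between genotypes in fed mice on HFD, 36 of the 71 were lower and 4 higher in LKO, and of the 57 above background on every array 26 and 4 (16.3% and 16.6% of all genes). Among them were Mad2l1, of the spindle checkpoint, at -0.86, E2f1 at -0.74, Smc2, of condensin, at -0.60, Cdk6 at -0.45 and Ccnd3 at 0.37. The CDK inhibitor Cdkn1a stood at -1.51 (adjusted p = 0.00241) in this comparison. Of those 57, the genotype by diet interaction in fed mice was called for 8, all negative (1.87% of all genes were), with Anln at -0.77 and Rbl1 at -0.60. Fasting lowered 28 (LWT CTRL), 39 (LWT HFD), 22 (LKO CTRL) and 31 (LKO HFD) of the 57 and raised 5, 4, 3 and 6, where 16.6%, 14.7%, 19.1% and 14.6% of all genes were lowered and 16%, 13.8%, 16.4% and 13.9% raised. E2f2, an activating E2F factor, fell by 2.03, 1.68, 1.72 and 1.47 in the same order, and Rbl1 and the flap endonuclease Fen1 fell throughout. Cyclin D1 (Ccnd1), which starts G1, fell with the fast in LWT mice by 1.13 on CTRL and 0.81 on HFD and in LKO mice by 1.1 on CTRL, and it was not called in LKO mice on HFD (-0.52 ± 0.27, adjusted p = 0.152). On CTRL, Ccnd1 was higher in LKO than in LWT mice, by 0.66 fed (adjusted p = 0.049) and 0.7 fasted (adjusted p = 0.0254). On HFD neither genotype difference of Ccnd1 was called (-0.09 fed and 0.21 fasted). The inhibitor Cdkn1a (p21) rose with the fast by 1.21 in LWT and 2.45 in LKO mice on CTRL and by 2.41 in LKO mice on HFD, and in LWT mice on HFD it stood at 0.91 ± 0.37 (adjusted p = 0.0588). The genotype by fasting interaction of Cdkn1a was not called on CTRL (1.24 ± 0.54, adjusted p = 0.203) or on HFD (1.5 ± 0.56, adjusted p = 0.139).

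Markers of the cells that a liver sample holds were read beside these results. Of all genes, 12.4% were called higher and 11.7% lower on HFD in fed LWT mice. In fed LWT mice on HFD, none of 8 Kupffer cell and none of 4 tested B cell markers was called, of 7 T and NK cell markers 1 was lower (Cd3e at -0.29), and of 6 markers of liver endothelium 1 was higher. Of 6 stellate cell and fibroblast markers 3 rose, Col1a1 (1.29), Pdgfrb (0.46) and Dcn (0.35). The summed linear signal of a list follows its brightest probes, here Dcn for stellate cells, Hba-a1 for erythroid cells and, in its highest sums, Spp1 for cholangiocytes, so a sum does not speak for every marker of its list. The stellate cell sum ran from 22300 through 26300 to 31000 on CTRL and from 24600 through 34300 to 43200 on HFD. Of 6 neutrophil markers S100a8 (0.84) and S100a9 (0.91) were higher and Elane lower (-0.23). Of 5 tested erythroid markers Tfrc, the transferrin receptor, was higher (1.47), and the summed signal ran from 131000 to 252000 and from 201000 to 326000. Of 6 cholangiocyte markers Spp1 was higher (0.66) and Cdh1 lower (-1.44), with sums of 2180 to 4270 and 2730 to 5650. Of 8 hepatocyte markers Cps1 (-0.82) and Fgb (-0.18) were lower, with sums of 1330000 to 1440000 and 1300000 to 1380000. The B cell markers Cd79a and Blk and the T cell marker Cd8a were not above background in enough arrays to be tested.

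Between genotypes in fed mice on HFD, 4 of 6 cholangiocyte markers were lower in LKO mice and 1 higher, 2 of 6 stellate cell markers were lower and 1 higher, and 3 of 8 hepatocyte markers were higher and 1 lower. Of 7 T and NK cell markers 2 were higher and 1 lower, of 6 endothelial markers 1 and 1, and of 5 erythroid markers 1 was higher, while no Kupffer cell, B cell or neutrophil marker was called. LKO mice were lower for Spp1 (-2.23), Epcam (-0.46), Col1a1 (-1.79) and Pdgfrb (-0.32) and higher for Cdh1 (1.5), Cps1 (1.36) and Fgb (0.47). The cholangiocyte sum ran from 1280 to 2110 in LKO mice, below that of LWT mice as Spp1 was, while Cdh1 went the other way. The hepatocyte sum ran from 1420000 to 1540000, above that of LWT mice. The stellate cell sum ran from 26700 to 35200 and overlapped. In fasted LWT mice, HFD raised 4 of 6 neutrophil (median 0.62), 3 of 6 stellate cell and 2 of 5 erythroid markers and 1 each of the Kupffer cell, T and NK cell and cholangiocyte markers. It lowered 2 of 6 endothelial markers, and of the hepatocyte markers 1 rose and 1 fell. The neutrophil sum ran from 1210 to 1860 on CTRL and from 1940 to 4070 on HFD, without overlap, and the stellate cell sum from 20500 to 31200 and from 26200 to 39000. Between genotypes in fasted mice on HFD, 4 of 6 neutrophil and 4 of 6 cholangiocyte markers were lower in LKO mice, 1 cholangiocyte marker was higher, and 5 of 6 endothelial markers were higher. Of the stellate cell markers 2 were lower and 1 higher, of the hepatocyte markers 1 and 2, of the Kupffer cell markers 1 and 1, of the erythroid markers 1 and 0, and of the T and NK cell markers 0 and 1. The neutrophil sum of these LKO mice ran from 1320 to 1670, below that of LWT mice, and the cholangiocyte sum from 956 to 1290 against 2410 to 4170. The genotype by diet interaction in fasted mice was called negative for 3 of 6 neutrophil markers (median -0.67). It was also called negative for 1 of 6 stellate cell and 1 of 8 Kupffer cell markers, and no marker was called positive. With the fast on CTRL, 4 of 6 cholangiocyte and 3 of 5 erythroid markers were lower in LWT mice and equally many in LKO mice. On HFD 1 of 6 cholangiocyte markers was lower in LWT and 2 of 6 in LKO mice, and no erythroid marker was. In LWT mice on HFD, where most members fell, 3 of 6 endothelial, 1 stellate cell and 1 Kupffer cell marker were lower, and 4 of 8 hepatocyte and 2 of 7 T and NK cell markers were higher. In each of the other 3 combinations 2 of 6 stellate cell markers were lower and 1 T and NK cell marker was higher. There hepatocyte markers higher and lower numbered 2 and 1 in LWT mice on CTRL, 2 and 1 in LKO mice on CTRL and 1 and 0 in LKO mice on HFD. By number alone, 1 endothelial and 1 neutrophil marker were lower in LWT mice on CTRL, and 1 of each list was higher in LKO mice on either diet. Of all genes, 16.6% were called higher and 16.3% lower for genotype in fed mice on HFD, and 19.1% and 17.7% in fasted mice. For HFD in fasted LWT mice the shares were 8.96% and 6.97%, and for the interaction 2.08% and 2.88%. The fast gave 16% and 16.6% (LWT CTRL), 13.8% and 14.7% (LWT HFD), 16.4% and 19.1% (LKO CTRL) and 13.9% and 14.6% (LKO HFD). In lists this short, 1 called marker is not read as a result. The part of these cell types in the levels of the cell cycle genes was not tested.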

How the data were processed

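Liver mRNA of 48 mice was measured on one-colour Agilent arrays. The authors labelled RNA with cyanine 3, and per the labels the scans were quantified with Feature Extraction 10.10.1.1. The deposited scanner files hold the intensity of each spot, its local background intensity and the flags of the software, without normalization. A deposited series table holds log2 values that the authors filtered, corrected for the washing batch and quantile normalized, and it served as an alternative (32437 probes, each column best correlated with its own array, r of at least 0.9994, column medians 7.69, so scale and centring are known and its filter is not). Every measured column belonged to a labelled sample.

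From the scanner files, log2 of the median signal was taken, 92 to 151 spots per array with an outlier mark were treated as missing, the washing batch was removed with group means protected, and arrays were quantile normalized. Of 56605 probes, the 30793 that the software marked well above background in 5 or 6 mice of any group were tested. The 48 arrays were fitted with limma 3.58.1 (R 4.3.3, statmod 1.5.0) with 8 group means and array weights (0.354 to 1.72), giving 12 pairwise differences and 6 interactions. Where no array of a group was above background, a fold was given as a lower bound against the lowest signal well above background. Such bounds compare group means and allow for no spread between mice. Genes named are all members, the first 3 by adjusted p of each companion list, list markers and Pik3ca. From the companion lists Cdkn1a, Ccnd1 and E2f2 were also picked by name and read where they were not called. Members and lists were chosen with earlier results of these data known. Gene symbols, and positions in mm9, were taken as the scanner files give them. Gene models of that build were not used here. The models were tested on simulated data. The labels name separate mice, so p-values measure the spread between mice. Alternatives covered the signal, background correction, scaling, filter, batch, slide, replicate block, weights, samples, probe choice, deposited table and each array left out. Leaving out 3 arrays together was added after seeing the data. The number of arrays limits the precision.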

Additional observations from a re-analysis of the deposited data

Results flagged for a closer look

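In 21 of 248 sets of 6 mice, defined by a member and a group, 1 mouse lay far from the other 5 by Dixon's criterion, 16 of them high and 5 low. Chance gives about 1 in 20 such sets. Replicate 5 of fed LKO mice on CTRL was high for Aurkb (5.98 against 5.36 to 5.51 in the others), Ccna2 (7.33 against 6.62 to 6.85) and Top2a (7.26 against 6.39 to 6.61). Replicate 1 of fasted LWT mice on HFD was high for Ccnb1 (6.20 against 5.39 to 5.65), Ccne1 (7.96 against 6.48 to 6.92) and Mcm2 (7.77 against 6.41 to 6.74). Replicate 1 of fasted LWT mice on CTRL was high for Ccna2 (6.53 against 5.92 to 6.04) and Cdc20 (6.62 against 5.89 to 6.15). Replicate 5 of fasted LKO mice on CTRL was low for Plk1 (5.78 against 6.02 to 6.14) and Top2a (5.41 against 5.78 to 5.99).

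The other such values came from mice with a single one each. High values were Aurkb at 7 in fasted LWT mice on CTRL (replicate 4, others 5.08 to 5.39), Birc5 at 8.29 and Mcm3 at 9.02 in fasted LKO mice on CTRL (replicates 1 and 6), Ccne1 at 7.59 and Cenpf at 5.54 in fasted LKO mice on HFD (replicates 1 and 3), Cdk1 at 7.11 in fed LWT mice on CTRL (replicate 3), Cenpe at 6.70 in fed LKO mice on HFD (replicate 6) and Cenpf at 6.03 in fed LKO mice on CTRL (replicate 1). Low values were Kif11 at 5.35 in fed LWT mice on HFD (replicate 5) and 4.79 in fasted LWT mice on HFD (replicate 6), and Tk1 at 10.67 in fasted LKO mice on HFD (replicate 5, others 11.43 to 11.70).

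The interactions called by limma were 19. In fed mice the HFD difference was smaller in LKO than in LWT mice for Mki67 (-0.95), Top2a (-0.93), Aurka (-0.86), Plk1 (-0.89), Cdc20 (-0.96), Cdca8 (-0.76), Pcna (-0.58), Foxm1 (-0.63) and Cenpe (-0.81). The value for Tpx2 was -0.52, but its probe was above background on 3 of the 18 arrays of the other fed groups, so that its size is uncertain and its call is no support. In fasted mice it was smaller for Top2a (-0.74), Mcm4 (-0.75), Aurka (-0.71) and Cdca8 (-0.69). In LWT mice the fasting difference was more negative on HFD for Plk1 (-0.72), Birc5 (-0.96), Pcna (-0.48) and Kif20a (-0.67). On HFD the fasting difference of Pcna was less negative in LKO than in LWT mice (0.42).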

How the results depend on the processing

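Of 196 calls of a member in a comparison, 195 kept their side of the threshold with the deposited log2 values and 152 when any 1 array was left out, and none reversed under any alternative. Within washing batch 1 and batch 2, with 3 mice per group, 93 and 102 kept their call. With the processed signal scaled to the 75th percentile, the median difference over the 31 members moved by over 1.5 times in 8 comparisons. For fasting it went from -0.35 to -0.89 (LWT CTRL), from -0.91 to -1.39 (LWT HFD), from -0.37 to -0.9 (LKO CTRL) and from -0.62 to -1.2 (LKO HFD). For HFD it went from 0.82 to 1.24 in fed and 0.39 to 0.63 in fasted LWT mice and from 0.23 to 0.47 in fed LKO mice, and for genotype in fasted mice on HFD from -0.27 to -0.6. Medians within 0.1 of 0 are left out here. Counts of members called that moved are given in the order of comparison.

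The fasting counts were 11 (LWT CTRL) with a fold above 1.5, 1 (LWT CTRL), 20 (LWT HFD), 8 (LKO CTRL) and 12 (LKO HFD) in washing batch 1, and 10 (LKO CTRL) in batch 2. HFD in fed LWT mice gave 18 in batch 2 and 19 of the 21 members with only probes above background on all arrays, where fewer genes were tested. HFD in fasted LWT mice gave 11 with a fold above 1.5, 3 in batch 1 and 7 in batch 2. HFD in fed LKO mice gave 0 with a fold above 1.5 and in each batch, 1 with no filter, 5 with a slide term and 1 with the replicate block. Genotype in fed mice on CTRL gave 1 with a fold above 1.5, without array weights and without the 3 arrays together, and 0 in each batch and with no filter. Genotype in fasted mice on CTRL gave 1 with the slide term, the 75th percentile, median scaling and without the 3 arrays, and 2 in the fasted arrays alone. Genotype on HFD gave 14 in fed mice with a fold above 1.5 and 2 in batch 2, and in fasted mice 6 and 4 in the batches. The genotype by fasting interaction on HFD gave 0 with a fold above 1.5, in each batch, with no filter, without weights and with the 75th percentile, and 3 without the 3 arrays. The diet by fasting interaction gave 0 in each batch for LWT mice, 8 with normexp and 8 without the 3 arrays, and 1 for LKO mice with the slide term and the 75th percentile. The genotype by diet interaction in fed mice gave 2 and 0 in the batches, 5 with no filter, and 6 with the 75th percentile or without washing correction. In fasted mice it gave 0 in each batch, 1 with no filter, 9 with the 75th percentile, and 2 without weights, with normexp, with median scaling or without washing correction. For all these the cause was not tested, beyond the smaller number of mice or genes where the alternative removes them.

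Leaving out each array in turn gave ranges of 15 to 20 (LWT CTRL), 30 to 31 (LWT HFD), 12 to 18 (LKO CTRL) and 20 to 25 (LKO HFD) for fasting. For HFD they were 28 to 29 in fed and 14 to 18 in fasted LWT mice, and 0 to 6 in fed LKO mice (0 without replicate 6 of HFD) and 0 to 0 in fasted LKO mice. For genotype they were 1 to 4 (fed) and 0 to 2 (fasted) on CTRL, and 21 to 27 (fed) and 8 to 12 (fasted) on HFD. For the interactions they were 0 to 0 and 0 to 1 for genotype by fasting on CTRL and HFD, 3 to 6 and 0 to 1 for diet by fasting in LWT and LKO mice, and 5 to 14 and 0 to 9 for genotype by diet in fed and fasted mice. The lowest fed count came without replicate 6 of LWT mice on HFD. Replicate numbers did not pair the mice (median correlation of deviations 0.01, from -0.34 to 0.32), and the replicate block moved no other count by more than 1.5 times. With median scaling, the share of all called probes that were higher on HFD went from 55.6% to 33.9% in fasted LWT and from 49.8% to 31.9% in fasted LKO mice.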
